A study of Mus musculus with 4 samples.

Results

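The end states that WT and p53-/- mouse embryonic fibroblasts (MEFs) reached under doxorubicin were set side by side, with 1 array for p53-/- MEFs with doxorubicin and 1 array for WT MEFs with doxorubicin. They are 2 of 4 arrays, the others being untreated MEFs of the same genotypes, which were run in a search for myosin regulators that depend on p53. WT stands for p53+/+ cells, p53-/- MEFs carry no working p53 gene by their label, and the labels name doxorubicin as the only agent and give no dose, time or number of embryos for the arrays. Probes entered the comparison when the scanner software marked them as well above background on at least 1 of the 2 doxorubicin arrays, which held for 25783 of 39429 probes and for 20785 of 31698 genes. Of these genes, 17884 were above background on both arrays, 2137 in WT MEFs alone and 764 in p53-/- MEFs alone. With 1 array per condition there was no replicate check, no p-value was calculated, and "higher" or "lower" means a difference of at least 2-fold between these arrays.

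The transcription factor p53 is stabilized when DNA is broken and switches on genes that stop the cell cycle, kill the cell or repair the damage, among them the gene of its own inhibitor Mdm2. Doxorubicin traps topoisomerase II on DNA and leaves double-strand breaks. The p53 target Cdkn1a encodes p21, an inhibitor of cyclin-dependent kinases, which keeps the RB family and the DREAM complex on the promoters of replication and mitosis genes, so cells without p53 are known to go on cycling after damage.

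Levels are given as scaled signals, that is, the processed spot intensity multiplied so that the 75th percentile of every array was 2036. Where 4 scaled signals follow each other, the first pair belongs to WT MEFs without and with doxorubicin and the second pair to p53-/- MEFs without and with doxorubicin. The brightest of 153 negative control spots had scaled signals of 106, 86.7, 271 and 101, so a signal under these values was within the reach of background even where it was marked as above it. Repeat spots of a probe gave a ratio with an SD of 0.08 on the log2 scale (265 probes with 10 spots each), which covers the error within an array and nothing between cultures. All arrays lay on 1 slide, 0 spots were saturated, and 56.9% to 62.9% of the probes were above background. The fibroblast label was borne out by the markers, since all 10 of the fibroblast markers listed were above background on each array and Col1a1, a chain of type I collagen, had scaled signals of 160129, 191257, 170073 and 143330.

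The Trp53 probe (chr11:69404204-69404263, mm9) had scaled signals of 1205, 3853, 479 and 457. Both WT values lay above both p53-/- values, and the signal of the doxorubicin-treated p53-/- MEFs was 8.43-fold lower than that of the WT MEFs, in the direction of the labels. A signal over the negative controls was left in p53-/- MEFs, and whether the probe lies in the deleted part of the gene is not given in the sources used here. The other family members differed less between the doxorubicin arrays, with a log2 difference (p53-/- over WT) of -0.50 for Trp63 and 0.41 for Trp73. The Trp73 probe was dim (scaled signals of 181, 248, 269 and 329), and in untreated p53-/- MEFs it was under the brightest negative control (271). The remaining Trp73 probes were above background on no array, so a small difference of this gene cannot be read from these arrays.

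Under doxorubicin, 2745 genes (13.2% of those tested) were higher and 2345 (11.3%) were lower in p53-/- than in WT MEFs. Of these calls, 620 of the higher and 502 of the lower genes rested on a bound, because the gene was above background on 1 array alone and the lowest signal so marked stood in for the other. The difference reached at least 8-fold for 292 genes upwards and 244 downwards, and at least 32-fold for 43 and 44. Both directions were thus filled about equally, and 57.5% of the genes measured on both arrays lay within 1.5-fold. In untreated MEFs, measured in the same way, 619 of 18918 genes (3.27%) were higher and 696 (3.68%) were lower. The SD of the log2 difference over genes measured on both arrays was 1.05 with doxorubicin and 0.49 without. The plot of the levels in the treated genotypes shows most cell cycle and interferon genes above the diagonal and most p53 targets below it.

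**Figure D1:**
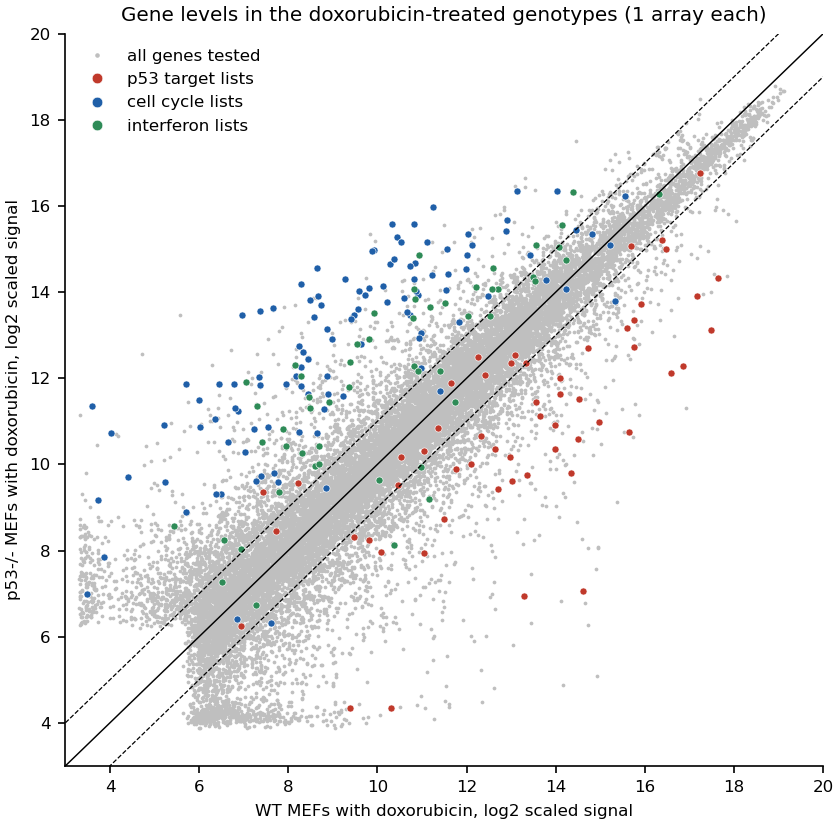
Scaled signal (log2) of each gene in doxorubicin-treated WT MEFs (x axis) and p53-/- MEFs (y axis), 1 array each. Grey points are the 20785 genes tested, coloured points are members of the p53 target, cell cycle and interferon lists, the solid line marks equal signals and the dashed lines a 2-fold difference. Of the list members tested, 40 of 56 p53 targets lie under the lower dashed line and 101 of 112 cell cycle genes above the upper one.

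The known p53 targets were the lower group. Of 57 listed targets 56 were tested, 40 were lower and 2 were higher in p53-/- MEFs, with a median log2 difference of -2.23 beside 0.00 over all genes measured on both arrays. Cdkn1a, Ccng1 and Ddit4l are shown with stretches of their RefSeq promoters (GRCm38.p6) because these genes belong to the targets with the largest differences and their promoters hold a p53 decamer, the 10-base unit of which a full p53 site holds a pair. Capitals mark the decamer, and each sequence runs 5′ to 3′ towards the gene.
Cdkn1a (chr17:29090893-29090972, plus strand): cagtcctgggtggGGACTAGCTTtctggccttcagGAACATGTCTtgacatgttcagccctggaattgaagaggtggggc
Ccng1 (chr11:40755427-40755506, minus strand): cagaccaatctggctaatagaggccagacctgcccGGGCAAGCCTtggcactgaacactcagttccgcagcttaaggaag
Ddit4l (chr3:137623547-137623626, plus strand): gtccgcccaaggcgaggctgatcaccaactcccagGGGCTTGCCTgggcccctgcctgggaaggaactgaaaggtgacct
The decamer, searched on both strands, stood in 9.55% of all 27025 RefSeq promoters, each taken from 250 bases before to 50 bases after a start. Promoters were found for 78.6% of the tested targets, under the 80% of a list asked for here before a share is read. The decamer stood in 13 of the 44 found. A match is a description of the sequence, and p53 binding was not measured on these arrays.

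The feedback genes of p53 were lower in 4 of 6 cases (median -2.25). Ccng1, cyclin G1, which recruits a phosphatase to Mdm2, had scaled signals of 23419, 51434, 1892 and 1727. Each WT value was above each p53-/- value, and the doxorubicin-treated arrays differed 29.8-fold. Trp53inp1, a cofactor of p53 in cell death and autophagy, had 10564, 31895, 585 and 2026 as scaled signals, and both of its probes were lower in p53-/- MEFs (log2 differences of -3.98 and -3.94). Mdm2, the ubiquitin ligase of p53, had scaled signals of 51310.5, 204942, 14782 and 20422. Its level in treated p53-/- MEFs was lower by a log2 difference of -3.33 and still far over background.

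Of the growth arrest targets 6 of 9 were lower (median -2.47). Cdkn1a had scaled signals of 28087, 118653, 1057 and 4972, a 23.9-fold difference under doxorubicin. Its untreated arrays differed 26.6-fold, so the genotypes stood about as far apart without the agent. Zmat3, an RNA-binding protein that p53 induces, had scaled signals of 11141, 16174, 1909.8 and 1315. Ptprv, a receptor phosphatase of the p53 arrest, was above background in WT MEFs alone (scaled signals of 525 and 1273 against 16.7 and 20.2) and was at least 17.4-fold lower in treated p53-/- MEFs. All 3 genes were lower in p53-/- MEFs on both pairs of arrays.

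Every one of the 13 cell death targets was lower, the nearest to equality by -1.47 and the farthest by -4.47 on the log2 scale. Perp, a membrane protein of desmosomes and p53-driven apoptosis, had scaled signals of 4626, 97960.5, 334 and 4427. The treated p53-/- MEFs thus stood near untreated WT MEFs and 22.1-fold under treated WT MEFs. Ei24, a membrane protein of the endoplasmic reticulum, and Pidd1, which encodes a scaffold for caspase-2, were 10.6-fold and 9.70-fold lower. Of the classical mitochondrial killers, Bax had scaled signals of 25862, 55629.6, 13199 and 10486, and Pmaip1 (Noxa) had 8147, 49465, 2872 and 9223. Their log2 differences were -2.41 and -2.42, and that of Bbc3 (Puma) was -2.11.

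The metabolic and redox targets had the lowest median of the 6 target groups (-3.06), with 10 of 14 lower and 1 higher. Dcxr, a dicarbonyl and xylulose reductase, had scaled signals of 2526, 24884, 235 and 134, a 186-fold difference with doxorubicin. Ddit4l, an inhibitor of mTORC1, had scaled signals of 1278, 10015, 230.5 and 124. Both lay near the negative controls in p53-/- MEFs. Ephx1, epoxide hydrolase, was bright on all arrays (80522, 184018, 5121 and 8899 as scaled signals) and 20.7-fold lower. Sesn2, which restrains mTORC1 under stress, had a log2 difference of -3.07. The exception was Prkab1, a subunit of the AMP-activated kinase, with scaled signals of 374, 299.7, 449 and 764, which was 2.55-fold higher.

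DNA repair targets were mixed, with 2 of 6 lower, 1 higher and a median of -0.61. Ercc5, the endonuclease of nucleotide excision repair, had scaled signals of 2541, 8005, 1139 and 1153, and Polk, a translesion polymerase, was 3.20-fold lower. Ddb2, the damage sensor of the same pathway, ran the other way with scaled signals of 394, 172, 498 and 653, a 3.80-fold difference in which treated WT MEFs were the lowest array. Among membrane and signalling targets 5 of 8 were lower. Dgka, a diacylglycerol kinase, was 23.2-fold lower (scaled signals of 2567, 20742, 1526 and 895), Phlda3, an inhibitor of Akt, was 9.62-fold lower, and Eda2r, a receptor of the TNF family, was at least 9.15-fold lower.

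The largest differences downwards outside these lists belonged to genes whose highest signal was that of treated WT MEFs. Ankk1, a kinase-like gene next to the dopamine receptor gene Drd2, had scaled signals of 141, 25728, 55.6 and 109.7 (probe at chr9:49223359-49223418, mm9), a 234-fold difference. St14 (matriptase, a membrane protease) had 169, 17730.1, 59.9 and 113 as scaled signals, and Alox5 (5-lipoxygenase, which makes leukotrienes) had 121, 31822, 13.9 and 271. In these 3 genes treated WT MEFs stood far above the other 3 arrays. Sncg (gamma-synuclein), Hyal1 (a hyaluronidase), Cmtm5 and Cpz (a carboxypeptidase) had differences of 119-fold, 102-fold, 79.7-fold and 77.0-fold. Among genes above background in WT MEFs alone, Ces2e, a carboxylesterase, had scaled signals of 693, 31356, 12.3 and 34.2 and was at least 428-fold lower. It was followed by Tnfrsf18 (GITR, at least 349-fold), Ltb4r1 (a leukotriene B4 receptor, at least 252-fold), Ppp2r2c (at least 115-fold) and Ccdc153 (at least 86.2-fold). Ces2e belongs to a family of near-identical esterases, and cross-hybridization was not tested.

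Cell cycle genes were the higher group. Of 114 listed genes 112 were tested, of which 101 were higher and 2 were lower in p53-/- MEFs, with a median log2 difference of 3.54 (0.92 in untreated MEFs). Cultures with fewer dividing cells and cells with less of these RNAs cannot be told apart in RNA of a whole culture. Mitosis genes had the largest median (4.39, 39 of 40 higher). The promoters of Top2a and Kif2c are shown for the cell cycle homology region (CHR, TTTGAA or its reverse complement TTCAAA, in capitals), an element through which DREAM represses mitosis genes. Those of Dtl and Mcm5 are shown for the E2F site (TTTGGCGC or TTTCGCGC, either strand, in capitals) of replication genes. All are RefSeq promoters of GRCm38.p6.
Top2a (chr11:99024190-99024269, minus strand): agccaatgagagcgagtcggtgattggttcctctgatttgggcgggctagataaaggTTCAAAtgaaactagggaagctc
Kif2c (chr4:117178833-117178912, minus strand): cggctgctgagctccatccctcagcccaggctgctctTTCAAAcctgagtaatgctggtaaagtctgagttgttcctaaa
Dtl (chr1:191575545-191575624, minus strand): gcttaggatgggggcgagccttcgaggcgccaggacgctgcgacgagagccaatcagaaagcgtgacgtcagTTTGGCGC
Mcm5 (chr8:75109324-75109403, plus strand): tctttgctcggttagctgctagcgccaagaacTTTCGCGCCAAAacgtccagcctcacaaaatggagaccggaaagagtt
A CHR stood in 24 of the 34 mitosis promoters found (70.6%) and in 20.2% of all RefSeq promoters. An E2F site stood in 11 of 28 replication promoters (39.3%) and in 0.929% of all, and in 2.94% of the mitosis promoters. The CCAAT box, searched on both strands and often neighbouring a CHR, stood in 76.5% of mitosis and 64.3% of replication promoters and in 41.1% of all. In Mcm5 the marked stretch is made of overlapping E2F matches on the 2 strands.

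Top2a, topoisomerase II alpha and so the protein that doxorubicin traps, had scaled signals of 3656, 165, 9199 and 12162 (probe at chr11:98855522-98855581, mm9). The 2 treated arrays were the extremes of the 4, with a 73.6-fold difference between them. Fbxo5, which was not in the list and inhibits the anaphase-promoting complex, had 4399, 286, 8956 and 13359 as scaled signals and was 46.7-fold higher. Kif2c, a kinesin that depolymerizes microtubules, was 45.4-fold higher, with a signal in treated WT MEFs (63.8) under the brightest negative control. Mki67, the proliferation marker, had scaled signals of 19968, 1277, 40102 and 49444. Several genes that act in mitosis, the last 2 not listed, were not above background in treated WT MEFs at all, among them Nek2 (a centrosome kinase, scaled signals of 975, 52.5, 2307 and 3746, at least 71.3-fold higher), Nuf2 (a kinetochore protein, a log2 difference of at least 5.73), Ska1 (at least 45.4-fold) and Pbk (at least 122-fold). Pimreg, a mitotic regulator at the metaphase to anaphase step, had the largest bound, with scaled signals of 3910.4, 47.4, 9631 and 11326 and a difference of at least 228-fold. In all of them treated WT MEFs were the lowest array.

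Of the replication genes 33 of 35 were higher (median 3.15). Mcm10, a replication factor, had scaled signals of 2388, 201, 5354 and 12727, a 63.2-fold difference. Cdc6, a licensing factor, was above background on all arrays but that of treated WT MEFs and at least 34.0-fold higher, and Dtl, which marks licensing factors for destruction, was 33.7-fold higher (scaled signals of 1217, 111, 2118 and 3730.1). In deoxynucleotide synthesis 6 of 7 were higher. Tk1, thymidine kinase, had 7907, 401, 14826 and 24060.5 as scaled signals and was 60.0-fold higher, whereas Tyms and Rrm2 (thymidylate synthase and a ribonucleotide reductase subunit) differed 5.02-fold and 4.92-fold. The p53-inducible reductase subunit Rrm2b stood in neither group, with scaled signals under the brightest negative control on all arrays but that of treated WT MEFs (123).

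All 16 tested genes of homologous recombination and the Fanconi pathway were higher, by 2.12 to 6.51 on the log2 scale. Exo1, the exonuclease that resects broken ends, had the largest measured difference upwards of all genes that the rule allows to be named, with scaled signals of 2643, 125, 5459.9 and 11430.4 (probe at chr1:177838682-177838741, mm9) and a 91.4-fold difference. Rad51ap1, an accessory factor of this repair, had 3152, 311, 7345 and 18629.5 as scaled signals, and Eme1, part of a nuclease for branched DNA, was 25.8-fold higher. Brca1 was above background on neither treated array. Aunip (64.8-fold), Iqgap3 (61.9-fold), Fignl1 (61.5-fold) and Shcbp1 (54.4-fold) completed the largest measured differences upwards. The treated WT signals of Aunip (78.0) and Eme1 (81.9) were under the brightest negative control.

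Genes of the G1 phase were less uniform, with 7 of 14 higher and 2 lower (median 0.96). The E2F factors E2f2 and E2f8, which are themselves E2F targets, were 20.6-fold and 15.2-fold higher, and Ccne1, cyclin E1, had scaled signals of 12323, 1807, 16999 and 20168. Ccnd2, cyclin D2, ran the other way (66044, 41427, 33323 and 14148 as scaled signals, 2.93-fold lower), and Ccne2 was at least 2.45-fold lower with signals near background. Of the CDK inhibitors 3 of 7 were higher and 2 lower. Cdkn2c (p18) and Cdkn2d (p19) were 5.70-fold and 5.40-fold higher and Cdkn1b (p27) 2.98-fold, while Cdkn2b (p15) was 2.28-fold lower and Cdkn1a lower as given above.

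**Figure D2:**
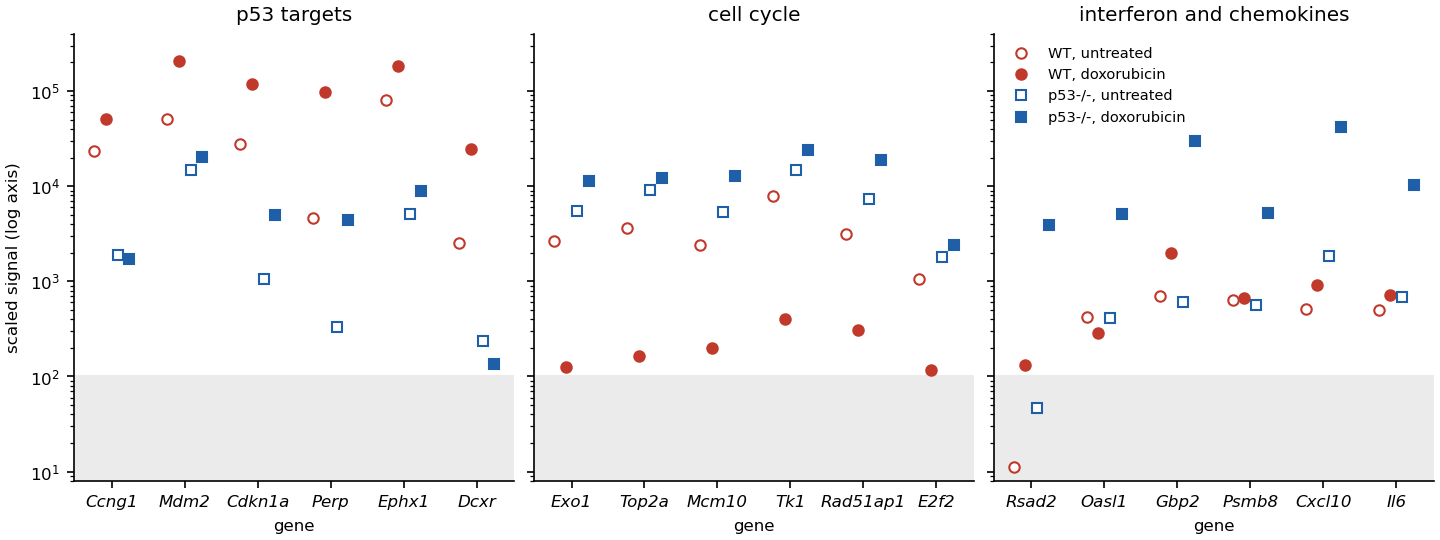
Scaled signal (log axis) of 6 p53 targets, 6 cell cycle genes and 6 interferon or inflammatory genes on the 4 arrays, 1 point per array. Circles are WT and squares p53-/- MEFs, open symbols untreated and filled symbols doxorubicin, and the grey band ends at the higher of the brightest negative controls of the treated arrays (101). Filled circles are the highest points of the p53 targets and the lowest of the cell cycle genes, and filled squares are the highest points of the interferon and inflammatory genes.

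Interferon-stimulated genes were also mostly higher in treated p53-/- MEFs. Of 32 listed genes 31 were tested, 26 were higher and 0 lower, with a median log2 difference of 1.97 beside 0.05 in untreated MEFs. Genes of this kind are known for the interferon-stimulated response element (ISRE), a site of the STAT and IRF factors, searched here as a pair of GAAA runs that are 2 bases apart, on both strands. Stretches of the promoters of Rsad2 and Ifit3 are shown with the element in capitals (RefSeq, GRCm38.p6).
Rsad2 (chr12:26456528-26456607, minus strand): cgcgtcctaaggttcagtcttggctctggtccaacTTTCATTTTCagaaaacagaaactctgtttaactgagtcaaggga
Ifit3 (chr19:34583372-34583451, plus strand): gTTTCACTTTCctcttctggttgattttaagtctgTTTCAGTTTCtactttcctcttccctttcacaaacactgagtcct
The element stood in 3.99% of all RefSeq promoters. Promoters were found for 67.7% of the interferon-stimulated genes, under the 80% of a list asked for here before a share is read. The element stood in 10 of the 21 found, and the rest of the list was not searched. For the interferon-inducible GTPases they were found for 9 of 11 genes, and 8 of the 9 (88.9%) held the element.

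Rsad2 (viperin, an antiviral enzyme) had scaled signals of 11.2, 132, 46.5 and 3863. It was above background on the treated arrays alone and differed 29.3-fold between them. Oasl1, an antiviral protein of the oligoadenylate synthetase family, had 419, 286, 409 and 5109 as scaled signals, a 17.9-fold difference. In untreated MEFs the 2 genotypes had nearly equal signals. Cmpk2, a mitochondrial nucleotide kinase next to Rsad2 in the genome, was 16.7-fold higher, with scaled signals of 156 and 2619 on the treated arrays, and was above background on neither untreated array. The interferon-beta gene Ifnb1 was above background in treated p53-/- MEFs alone (12.2, 26.8, 13.0 and 283 as scaled signals) and was at least 5.70-fold higher.

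Of the interferon-inducible GTPases, which attack vacuoles of intracellular pathogens, 9 of 11 were higher and 0 lower (median 2.22). Gbp2 had scaled signals of 697, 1966, 608 and 29955, a 15.2-fold difference. Irgm2 and Ifi47 were 9.56-fold and 8.59-fold higher. Each of the 3 had its highest signal in treated p53-/- MEFs and similar signals in the untreated genotypes.

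Genes of MHC class I and antigen processing were divided, with 4 of 11 higher and 3 lower (median 0.50). The immunoproteasome subunits Psmb8 and Psmb10 were 7.87-fold and 2.91-fold higher, and Tapbp (tapasin, which loads peptides) 2.58-fold. Tap1, the peptide transporter next to Psmb8 in the MHC locus, ran the other way with scaled signals of 157, 1333, 17.4 and 279, a 4.77-fold difference. Nlrc5, the transactivator of MHC class I genes, had scaled signals of 64.0, 2291, 76.3 and 590.1. In both of these genes treated WT MEFs were the highest array.

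Chemokines were higher in 11 of 14 cases and lower in 1 (median 1.76). Cxcl10, an interferon-induced attractant of T cells, had scaled signals of 509.5, 909, 1834 and 41441 (probe at chr5:92775781-92775840, mm9), a 45.6-fold difference. Cxcl5, an attractant of neutrophils, had 827, 55.4, 475 and 1908 as scaled signals. Its WT signal with doxorubicin was under the brightest negative control. Cxcl9 was above background in treated p53-/- MEFs alone (1409) and at least 28.4-fold higher. Cxcl14 was the exception, with scaled signals of 40456, 40429, 14336 and 5677, and was 7.12-fold lower.

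Cytokines and secreted growth factors showed no common side (7 of 18 higher, 4 lower), and the sign of their median of 0.09 depended on the processing, with a range from -0.02 to 0.35. Il6, the best known cytokine of damaged fibroblasts, had scaled signals of 505, 727, 685 and 10214, a 14.1-fold difference. Tslp and Il33, alarm signals to innate lymphoid cells, were 7.50-fold and 6.63-fold higher. For Il33 it was treated WT MEFs that stood apart, with 932, 92.0, 553 and 610.0 as scaled signals. Gdf15, a stress hormone and a known p53 target, was 6.65-fold lower (3854, 9378, 905 and 1409), as was the growth factor Areg by 2.86-fold. Of the NF-kB regulators 6 of 8 were higher (median 1.73), with differences of 5.15-fold for Nfkbie, 4.11-fold for Nfkbia, both inhibitors that NF-kB induces, and 4.03-fold for Birc3. Nfkbia had scaled signals of 8764, 11406, 12604 and 46839.

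**Figure D3:**
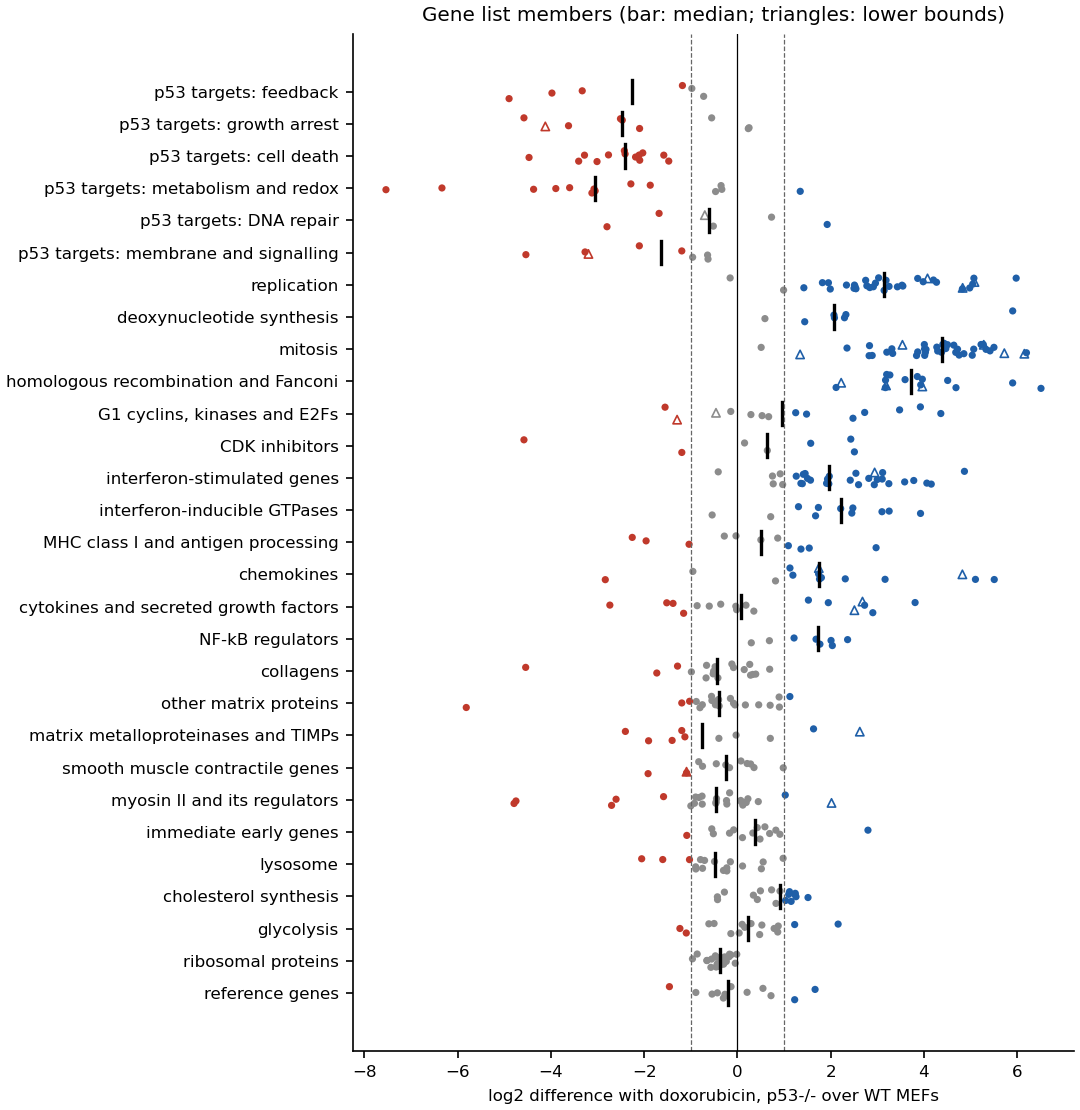
Log2 difference with doxorubicin (p53-/- over WT MEFs, x axis) of each tested member of the gene lists (rows). Circles are differences measured on both arrays, open triangles are genes above background on 1 array alone, whose difference is at least as large, blue and red mark genes at least 2-fold higher or lower, black bars are list medians and dashed lines the 2-fold limits. Most members of the 4 lists of replication, deoxynucleotides, mitosis and recombination lie right of the upper limit, and all cell death targets lie left of the lower one.

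Matrix genes were lower in 11 of 49 cases (22.4%) and higher in 3 (6.12%), beside 11.3% and 13.2% over all genes. Their median was -0.41, beside -0.57 in untreated MEFs, where 8 of 49 were lower. Most collagens lay within 2-fold (15 of 18), with 3 (16.7%, beside 11.3% over all genes) lower and 0 higher. The exceptions were Col18a1, the source of endostatin, with scaled signals of 7467, 33130.2, 1818 and 1424 and a 23.3-fold difference, Col16a1 (3.31-fold lower) and Col8a1 (2.43-fold lower). Of the 3 probes of Col16a1, 1 was within 2-fold (-0.57). Matn4, an adaptor protein of the matrix, had scaled signals of 972, 22813, 650.1 and 405 and was 56.3-fold lower. Thbs1 (thrombospondin-1) and Fbln2 (fibulin-2) were 2.28-fold and 2.03-fold lower. The gelatinase Mmp2 had scaled signals of 15817, 18514, 10523 and 3505, and its inhibitor family member Timp3 65391, 84839.9, 22875 and 22674. Mmp2, Timp3 and Mmp11 were 5.28-fold, 3.74-fold and 2.64-fold lower, whereas Mmp13 was 3.11-fold and Mmp9 at least 6.18-fold higher with dim signals.

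Dmpk, the kinase that gave the study its subject and that phosphorylates the myosin phosphatase subunit, had scaled signals of 9398, 41644, 11661 and 6864 (probe at chr7:19679066-19679125, mm9). It was 6.07-fold lower in treated p53-/- MEFs. The untreated genotypes differed by 0.31 on the log2 scale in the opposite direction. Of 26 listed genes of myosin II and its regulators 5 (19.2%, beside 11.3% over all genes) were lower and 2 (7.69%, beside 13.2%) higher. The remaining 19 lay within 2-fold, and the list median was -0.45. The largest differences belonged to Cdc42bpg, an MRCK kinase related to Dmpk (scaled signals of 609.9, 2873, 274 and 104, 27.7-fold), and Ppp1r14a (CPI-17, an inhibitor of myosin phosphatase, scaled signals of 2149.8, 13989, 1286 and 520.5, 26.9-fold). Dapk1, a kinase of the myosin light chain in cell death, was 6.49-fold lower. In these 4 genes treated WT MEFs were the highest array and treated p53-/- MEFs the lowest. Cit (citron kinase, which acts at the end of mitosis) was at least 4.06-fold higher and Myh10, a non-muscle myosin heavy chain, 2.04-fold, a difference that was under 2-fold with some of the other settings. Smooth muscle contractile genes were higher in 0 and lower in 3 of 13 cases (23.1%), beside 13.2% and 11.3% over all genes. The remaining 10 lay within 2-fold, and the lower ones were Des (3.77-fold), Cald1 (2.13-fold) and Lmod1 (at least 2.13-fold).

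Cholesterol synthesis genes were higher in 8 of 17 cases and lower in 0 (median 0.92). Fdps, a synthase of the isoprenoid chain, had scaled signals of 58741, 8851, 68297 and 20946. Both treated arrays were thus under both untreated arrays, and treated p53-/- MEFs lay 2.37-fold over treated WT MEFs. Insig1, a sterol-induced brake of the pathway, was 2.86-fold higher. Of the lysosomal genes 0 of 17 were higher and 3 (17.6%, beside 11.3% over all genes) lower, with a median of -0.49, beside -0.17 over the brightest of 5 equal groups of genes. Ctsd, cathepsin D, had scaled signals of 83176, 237235, 48053 and 57223 and was 4.15-fold lower. Of 16 glycolysis genes 2 were higher, Aldoc by 4.48-fold and Pgk1 by 2.35-fold, and 2 were lower, Pfkl by 2.35-fold and Eno2 by 2.14-fold, shares near those over all genes. Ribosomal protein genes all lay within 2-fold and all below 0 (30 of 30, median -0.37). They were bright genes, and the median over the brightest of the 5 groups was -0.17. The part of brightness in their difference was not tested.

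Immediate early genes were higher in 1 and lower in 1 of 14 cases (7.14% each), beside 13.2% and 11.3% over all genes. The other 12 lay within 2-fold. Atf3, a stress-induced repressor, was the only higher one, with scaled signals of 1296, 774, 1227 and 5402, and Fosl1 was 2.12-fold lower. In the IGF system Igfbp2 was 3.20-fold and the receptor Igf1r 2.34-fold lower, and the remaining 8 of 10 genes lay within 2-fold. These 2 lower genes made 20% of the list, beside 11.3% over all genes. Reference genes used for normalization in such work were not all steady. Ppia, with scaled signals of 425618, 447079, 424713 and 363353, had a log2 difference of -0.30, Actb of -0.43 and Gapdh of -0.14, although the 7 probes of Gapdh reached from -0.14 to 0.99. Hprt was 2.74-fold lower (16335, 35754, 11069.7 and 13026) and Tfrc 3.18-fold higher, and the sign of the list median of -0.20 depended on the processing.

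The lineage and origin of the cultures were looked at through sex-linked, Hox and imprinted genes. Ddx3y, a gene of the Y chromosome, had scaled signals of 5449.8, 5531, 4739.7 and 4948, and Xist was above background on no array, so both genotypes gave the same pattern. Hox genes, which record the body position of fibroblasts, were higher in 10 of 36 cases (27.8%) and lower in 2 (5.56%), beside 13.2% and 11.3% over all genes. Their median was 0.40, and 0.36 in untreated MEFs. Hoxb6 was 3.61-fold higher with doxorubicin and 2.35-fold without (scaled signals of 2411, 2111, 5664 and 7629), and Hoxa4 3.42-fold and 3.70-fold. The WT signals of Hoxa4 were dim. Without doxorubicin it was at 81.7, under the brightest negative control (106), and with it at 90.1, just over that control (86.7). Hoxc13 had scaled signals of 323, 2335, 280.3 and 368 and was 6.34-fold lower under doxorubicin. The imprinted gene Nnat had scaled signals of 965, 814, 5536 and 7649, so it was higher in p53-/- MEFs on both pairs of arrays (5.74-fold untreated and 9.39-fold treated), and Peg10 showed the same with dim signals. Of the 16 imprinted genes tested 2 were higher and 2 lower, again near the shares over all genes. Different embryos and the genotype cannot be told apart here, since each genotype is 1 culture per condition.

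Markers of other cell types were low or did not separate the treated genotypes in most cases. Of 14 leukocyte markers 13 were tested, 0 were higher and 3 were lower (23.1%, beside 11.3% over all genes). The summed scaled signal of the list was 52663 in treated WT and 36089 in treated p53-/- MEFs, against 39751 and 43868 untreated. A large part of each sum was Itgam alone (range given below). The list medians were 553 and 720 in untreated and treated WT MEFs, and 453 and 633 in untreated and treated p53-/- MEFs. The defining marker Ptprc (CD45) was at 64.1, 74.4, 77.5 and 87.7, under the brightest negative control of each array, although Itgam gave 23829 to 35475. Cd14, a receptor for bacterial lipids, was 7.18-fold lower (504, 6739, 609 and 939 as scaled signals). Of the skeletal muscle markers Myod1, Myog, Myf5 and Ckm were above background on neither treated array, while Actc1 was 2.19-fold higher (2213, 120.1, 1648 and 264 as scaled signals) and Acta1 was bright on every array (6539 to 15686) and within 2-fold. Among epithelial markers Epcam was not above background, Krt5 was at least 13.9-fold lower (1065 in treated WT MEFs, 76.4 in treated p53-/- MEFs) and Krt14 2.29-fold lower, whereas Krt18, Cdh1 and Krt8 lay within 2-fold on the other side (log2 differences of 0.90, 0.79 and 0.74). Cdh1 was dim, with 62.9 in treated WT MEFs, under the brightest negative control (86.7), and 109 in treated p53-/- MEFs. Of the adipocyte markers Fabp4 (3.48-fold) and Pparg (2.66-fold) were higher and Cebpa 2.20-fold lower. Of the chondrocyte markers Acan, Col9a1 and Sox9 were 2.48-fold, 2.32-fold and 2.01-fold higher and Comp 2.22-fold lower. The part of other cell types in the differences was not tested. Among the fibroblast markers themselves 8 of 10 lay within 2-fold and 2 (20%, beside 13.2% over all genes) were higher. Pdgfra was 9.34-fold higher with scaled signals of 2677, 260.4, 4516 and 2432 and Lum 2.18-fold higher.

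The genotype difference under doxorubicin was then set beside that of the untreated arrays, which shares no array with it. Over 16505 genes measured on all 4 arrays, the 2 differences had r = 0.497 and rho = 0.443 across genes, which are not independent replicates. Of 1865 genes higher under doxorubicin, 204 (10.9%) were also higher without it, 23 (1.23%) were lower and 1638 (87.8%) lay within 2-fold. Of 1684 genes lower under doxorubicin, 222 (13.2%) were also lower without it, 16 (0.95%) were higher and 1446 (85.9%) lay within 2-fold. Read from the other side, 65.8% of 310 genes higher in untreated p53-/- MEFs were higher under doxorubicin and 53.6% of 414 lower genes were lower. The median untreated difference was 0.39 for the genes higher and -0.39 for the genes lower under doxorubicin. Mitosis genes already had a median of 1.14 in untreated MEFs (27 of 40 higher) and p53 targets of -0.97 (25 lower), whereas interferon-stimulated genes were at 0.05 (1 of 26 higher).

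**Figure D4:**
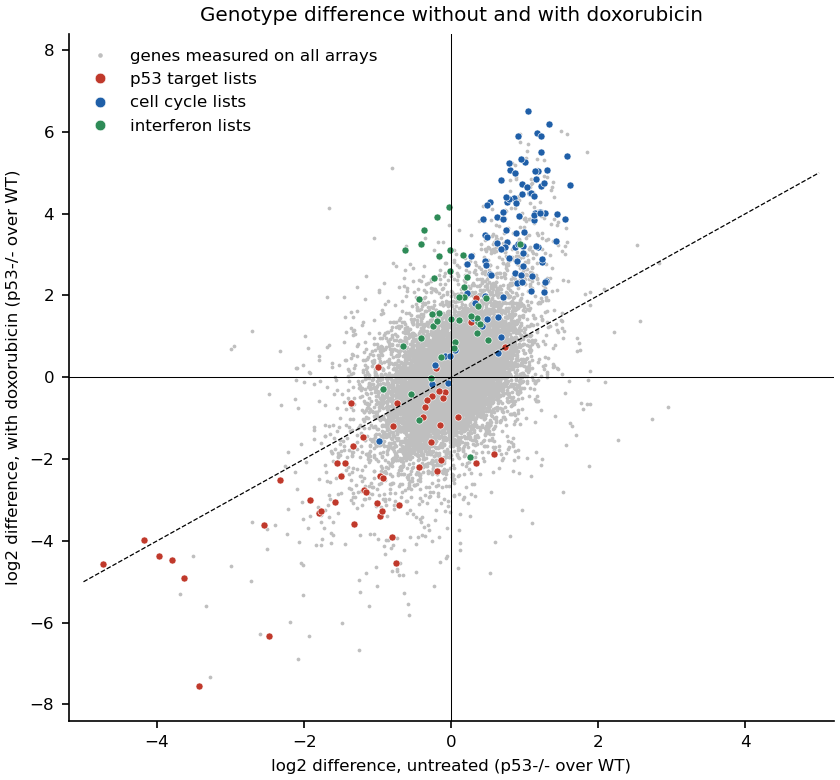
Log2 difference of p53-/- over WT MEFs without (x axis) and with doxorubicin (y axis) for 16505 genes measured on all 4 arrays, 1 array per condition. Coloured points are members of the p53 target, cell cycle and interferon lists, and the dashed line marks equal differences. Most cell cycle genes sit right of 0 on the x axis and they reach 6.51 on the y axis, with Ccnd2 (-0.99 and -1.55) on the opposite side, Cdkn1a and a few other targets lie near the dashed line, and interferon genes spread upwards around 0 on the x axis.

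The difference depended a little on signal and gene length. In 5 equal groups by mean signal, the median log2 difference was 0.05 in the dimmest and -0.17 in the brightest genes, of which 5.45% were higher and 6.73% lower. In 5 equal groups by gene length, the longest genes (63216 bases or more in RefSeq, 2689 genes) were higher in 7.36% and lower in 14.9% of cases, with a median of -0.20, against 11.1% to 14.7% higher and 9.48% to 10.75% lower in the shorter groups. Length was known for 81.5% of the genes, and across genes rho between length and difference was -0.065 with doxorubicin and -0.027 without. Chromosome medians lay between -0.07 and 0.06. Of 634 genes on the X chromosome 15.1% were higher and 7.57% lower, against 8.36% to 13.7% higher and 7.52% to 12.5% lower on the autosomes. Of 3422 genes with more than 1 probe measured, 5 had probes at least 2-fold apart from equality in opposite directions, and of 916 such genes that any probe called, 450 were called the same way by every probe.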

How the data were processed

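RNA from 4 MEF cultures was measured on 1-colour Agilent mouse arrays, 1 per condition, from 200 ng of total RNA labelled with Cy3. The authors deposited the intensity of each spot as processed by Feature Extraction 10.7.3.1, which subtracted background and removed trends within each array, gave dim spots substitute values and did not scale arrays to each other. The deposited flags, coded as 0 or 1, mark spots well above background, saturated or outlying. The settings of the authors' own fold changes were not used here. The deposited table of all intensities served as an alternative.

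Outlier spots (145 to 168 an array) were left out, the log2 intensities of repeat spots were averaged, and from each array its 75th percentile was taken off (signals of 2075, 1819, 1881 and 2421 for untreated WT, treated WT, untreated p53-/- and treated p53-/- MEFs). Each gene was represented by whichever of its probes was brightest on average over the 4 arrays. Where it was well above background on 1 of the compared arrays alone, the difference was bounded by the higher of the dim signal and the lowest signal so marked on that array (scaled signals of 55.6, 49.6, 62.7 and 73.3 in the same order). Precision is limited by the number of arrays, and no test was possible.

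Names came from a RefSeq table (GRCm38.p6): 26158 probes by accession, 3128 by symbol, 910 by synonym and 1, the brighter Dmpk probe, by its description, while 9232 kept the name in the file, which can be old. Positions of probes are in mm9, as the files give them. The gene lists and the comparison were chosen with earlier results of these data known. Named genes were the 10 largest measured differences and the 5 largest bounds in each direction, 3 members of each list in the direction of its median with up to 2 of the opposite side, and p53 family, sex-linked and reference genes and Dmpk. Some genes that meet this rule are not reported here by name, though they remain in counts and medians. Other list members (Bax, Bbc3, Pmaip1, Sesn2, Mki67, Kif2c, Ifnb1, Col1a1, Ptprc, Itgam) and genes with the promoters shown were chosen after their values were seen.

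Alternatives were the array median or quantile normalization for scaling, normexp background correction (limma, offset 50), 3 other filters on dim probes, 2 other ways to choose the probe, the deposited table, and thresholds of 1.5-fold and 3-fold. The steps were tested on simulated arrays. Calculations ran in Python 3.11.15 (pandas 2.3.3, numpy 2.4.6, matplotlib 3.10.9, scipy 1.17.1) and, for normexp, in limma 3.58.1 under R 4.3.3.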

Additional observations from a re-analysis of the deposited data

Results flagged for a closer look

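Lum, the gene of the matrix proteoglycan lumican and 1 of the fibroblast markers, was higher in p53-/- MEFs with doxorubicin and lower without it. Its scaled signals were 18617 in untreated WT, 666 in treated WT, 7381 in untreated p53-/- and 1454 in treated p53-/- MEFs, log2 differences of 1.13 with and -1.33 without doxorubicin. Both treated arrays lay under both untreated arrays. Lum was picked out because the genotypes stood in opposite order, at least 2-fold apart, on the 2 pairs of arrays. With 1 array per condition the difference between the pairs was not tested.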

How the results depend on the processing

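The direction of the comparison was the same under every alternative for the 145 named genes called, 132 of which were also at least 2-fold under each alternative that measured them. Those that were under 2-fold in some were Myh10, Sox9, Fbln2, Gaa, Ccne2, Lmod1, Insig1, Peg10, Lyz2, Actc1, Acan, Col9a1 and Comp. The counts of 2745 higher and 2345 lower genes were 2472 and 2573 with the array median and 2873 and 2462 with quantile normalization, 2125 and 1843 above background on both arrays, and 2352 and 2158 with the brightest negative control as the floor. Beyond 1.5 times the count moved for the higher genes with normexp (1790, beside 1890 lower, of which 1788 and 1883 were called with the first setting too) and for the lower genes with no filter (3615, beside 3840 higher). The thresholds gave 4840 and 4307 genes at 1.5-fold and 1287 and 1126 at 3-fold. The deposited table gave equal counts. The median of the cell cycle genes was 3.17 with normexp and 3.38 with the negative control floor, and that of the interferon-stimulated genes 2.12 with quantile normalization and 2.40 with the mean of the probes. All arrays lay on 1 slide, so that it could not serve as a block, and no paired analysis was possible because each group held 1 array. Dim genes limit the size of the differences: a bound or a signal near the negative controls gives the side and not the size.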

Other observations

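Families of genes that share the start of their symbol were counted as well, 191 families with at least 10 tested members, and a few were picked after their counts were seen. Over all genes tested 13.2% were higher and 11.3% lower. Nucleoporins, the parts of the nuclear pore (Nup), were higher in treated p53-/- MEFs in 12 of 21 cases (57.1%) and lower in 0. Their median log2 difference was 1.02 (0.51 untreated). Nup85 had scaled signals of 14279 in untreated WT, 6242 in treated WT, 19396 in untreated p53-/- and 22240.3 in treated p53-/- MEFs, and Nup107 had 14579, 5193, 22329 and 15953 in the same order. Treated WT MEFs were the lowest array in both. Centrosomal proteins named Cep were higher in 15 of 36 cases (41.7%) and lower in 2 (5.56%), led by Cep55 with a log2 difference of 2.93. Members of the Parp family were higher in 6 of 12 cases (50%). Of these, Parp14, an interferon-induced enzyme, had scaled signals of 349.6, 894, 227 and 7753, while Parp1, the sensor of DNA breaks, had 2001, 673, 3425 and 2716.

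On the lower side, sulfotransferases of chondroitin, keratan and related sugar chains (Chst) were lower in 6 of 11 cases (54.5%) and higher in 0. Their median was -1.11, and 0.08 untreated. Chst11 and Chst14 had log2 differences of -1.79 and -1.73, and for Chst14 the scaled signals were 6225, 6347, 4498 and 1911, with treated p53-/- MEFs as the lowest array. Among mannosidases, Man2b1 of the lysosome had scaled signals of 12488, 182668, 9274 and 16538 (log2 difference -3.47). Wnt ligands were lower in 6 of 15 cases (40%) and higher in 3 (20%), beside 11.3% and 13.2% over all genes. Among the lower ones, Wnt2 and Wnt3 rested on bounds. Wnt10a, at 94.4 in treated p53-/- MEFs, was under the brightest negative control of that array (101). Wnt9a had scaled signals of 3417, 15036, 1096 and 1078, and Wnt16, on the higher side, had 387, 98.4, 615 and 460.2.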
